A study of Bos taurus with 12 samples.

Results

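Loci with RNA detected in cloned cattle embryos but at or near the floor in both fertilised embryos and fibroblasts numbered 200 of the 22445 loci in the deposited table. They were chosen by their values: mean FPKM (read fragments per kilobase of transcript, normalised to the mapped total) of at least 5 in both groups of cloned embryos, under 1 in embryos from in vitro fertilisation (IVF) and under 1 in fetal fibroblasts. All 4 group values enter that choice, so the gap between clones and the other groups is a description of the members and carries no test. Silent here means under 1 FPKM, not absent, since 185 of the 200 loci had an IVF mean above 0.

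The labels list Holstein cattle samples in 4 groups, with 3 libraries in each. Bovine fetal fibroblasts (BFF) are body cells of the kind used in cloning, and the labels do not say whether these cultures gave the donor nuclei. IVF eight-cell embryos, SCNT eight-cell embryos and SCNT KDM5B eight-cell embryos were collected as pools of 8 embryos, so an embryo library averages over its pool. The KDM5B group carried KDM5B overexpression on top of nuclear transfer, the labels used here do not say how it was delivered, and no treatment is listed for the other groups. The table holds 1 value per group and locus, the mean of 3 libraries. No spread between libraries, SD or test can therefore be given, and a mean at the limit of 5 FPKM could rest on 1 library.

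In somatic cell nuclear transfer (SCNT) a somatic nucleus replaces that of the egg, and the egg must turn a somatic programme into an embryonic one. Bovine embryos begin major transcription from their own genome at about the 8-cell stage, while RNA stored in the egg is still being cleared. Cloned embryos are known both for donor cell genes that stay on and for embryonic genes that fail to start. The loci described here were low in these fibroblasts and in IVF embryos by choice, so by these group means they belong to neither class. Whether they were also low in the donor cells is not known. KDM5B removes methyl groups from histone H3 at a site that marks active genes.

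Of the 200 loci, 72 had Ensembl identifiers and 128 were loci named by the authors themselves, with IDs that begin with BGI_novel. How the latter were defined is not stated in the labels or the table. The table does not pair IDs with names, and 0 of the members matched the gene table used here, so symbols, functions, gene lists, cell type markers and sequences were not analysed. Members are therefore described by level, locus type and numbering. KDM5B itself could not be looked up for the same reason.

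Most members stood at moderate levels in clones, below the SCNT median of 23.3 FPKM over all 6297 loci at 5 FPKM or more in both clone groups. The SCNT level ranged from 5.003 to 223 FPKM with a median of 11.2 and quartiles of 7.68 and 21.9. With KDM5B it ranged from 5.05 to 150 FPKM with a median of 13.4 and quartiles of 8.29 and 23.2. By the mean of both clone groups, 74 loci lay at 5 to 10 FPKM, 68 at 10 to 20, 41 at 20 to 50, 14 at 50 to 100 and 3 above 100. All 200 together summed to 4160 FPKM in SCNT, 0.470% of that column, and to 4197 FPKM with KDM5B, 0.473% of that column. The same loci summed to 82.0 FPKM in IVF embryos and 19.1 in fibroblasts. The 10 largest members supplied 25.6% of the SCNT sum and 21.0% of the sum with KDM5B.

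**Figure D1:**
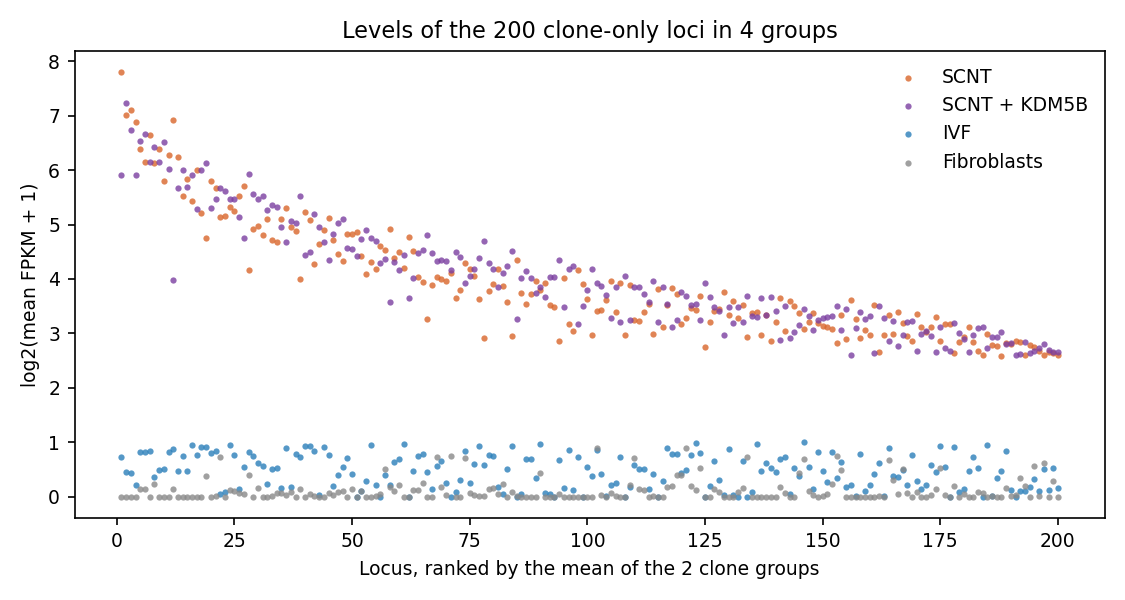
Level of each of the 200 loci in the 4 groups as log2(mean FPKM + 1), with loci ranked along the x axis by the mean of the clone groups and each point 1 group mean. Both clone groups fall together from a few loci above 100 FPKM to many near 5, while the IVF and fibroblast points lie below 1 throughout, as the choice of loci fixes.

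The largest members were a small set with Ensembl IDs. ENSBTAG00000044183.2 had an SCNT mean of 223 FPKM and a KDM5B mean of 59.0, against 0.66 in IVF and 0 in fibroblasts. It ranked 652 among all loci in SCNT and 1836 with KDM5B, so the highest SCNT level of the class was far lower in the other clone group. ENSBTAG00000037644.2 was steadier between clones, at 128 FPKM in SCNT and 150 with KDM5B, with 0.367 in IVF and 0 in fibroblasts. Its clone levels were 350 and 409 times its IVF level, ratios that rest on an IVF mean under 1 FPKM.

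The third member by level also had an Ensembl ID, and the next 4 were the authors' own loci. BGI_novel_G004623 had means of 117 FPKM in SCNT and 59.0 under KDM5B, with 0.157 in IVF and 0 in fibroblasts. BGI_novel_G004167 stood at 83.2 FPKM in SCNT and 92.4 with KDM5B, with 0.76 in IVF and 0.0967 in fibroblasts. Both locus types thus reached high ranks, and their middle levels were close. The SCNT median was 12.02 FPKM for the authors' own loci and 9.91 for Ensembl IDs, and with KDM5B the medians were 13.5 and 12.01 FPKM.

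Fibroblasts were emptier of these loci than IVF embryos were, within the limit of 1 FPKM that the choice set on both. The same order held for the authors' own loci in general. Over all own loci of the table the medians were 0.0417 FPKM in fibroblasts and 1.01 in IVF. Over all Ensembl IDs the order was the reverse, at 3.78 and 2.02 FPKM. The fibroblast mean was listed at 0 for 89 loci, which requires 0 in each of the 3 libraries at the precision of the table, and the IVF mean for 15. A further 59 loci lay above 0 and under 0.1 FPKM in fibroblasts and 26 in IVF. At 0.5 FPKM or more, close to the limit, stood 12 loci in fibroblasts and 75 in IVF. IVF was the higher of these groups for 169 loci, fibroblasts for 23, and 8 were listed at 0 in both. The order held in both locus types of the class. IVF was higher for 114 own loci and lower for 10, and higher for 55 Ensembl IDs and lower for 13. The labels' protocols describe amplified cDNA from lysed embryos, and the series' design text places fibroblasts and embryos on different instruments although the protocol text names a single one. Cell type and library handling therefore cannot be told apart in the fibroblast column.

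**Figure D2:**
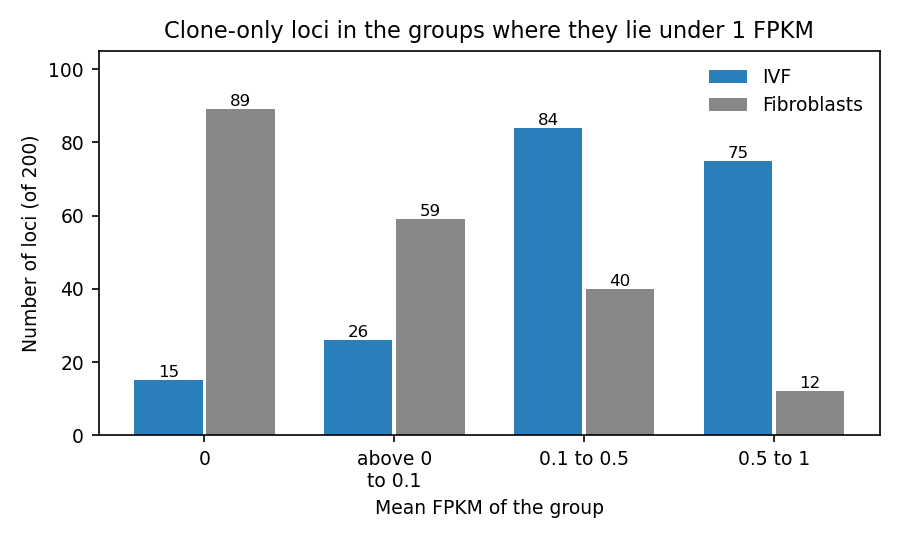
Number of the 200 loci by mean FPKM in IVF embryos and in fibroblasts, each bar labelled with its count. Fibroblasts pile up at 0 (89 loci) and IVF embryos between 0.1 and 1 (84 and 75 loci).

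For the 185 loci with an IVF mean above 0, the SCNT level was a median of 41.0 times the IVF level, with quartiles of 19.6 and 91.7, and 43 loci reached 100 times or more. With KDM5B the median ratio was 43.9 and 40 loci reached 100. These ratios follow from the choice of loci and from small denominators. The 8 loci at 0 in both IVF and fibroblasts, 4 of each type, were not the largest. The highest of them, BGI_novel_G004615, had means of 27.9 FPKM in SCNT and 20.4 under KDM5B. The lowest had 8.01 and 5.37. All 4 of the authors' own loci in this set were lower with KDM5B, while 3 of the 4 Ensembl IDs were higher. The whole class did not show this contrast. Its median log2 difference was 0.13 for own loci and 0.14 for Ensembl IDs. Of all members 60.5% were higher with KDM5B, against 59.1% of loci at 5 FPKM or more in both clone groups.

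The limits of the class cut through a continuous range of values. In SCNT the members closest to the limit stood at 5.003 FPKM and the closest locus outside at 4.97, and with KDM5B the same values were 5.05 and 4.95. In IVF they were 0.993 inside and 1.01 outside, and in fibroblasts 0.863 and 1.05. The IVF limit set aside the most loci, 792 that met the other 3 conditions. The fibroblast limit set aside 149, the SCNT limit 69 and the KDM5B limit 46. The closest locus outside the IVF limit, at 1.01 FPKM there, reached 214 FPKM in SCNT and 222 with KDM5B, the latter above every member's level in that group. With IVF and fibroblasts each under 0.1 FPKM 35 loci were left, and with a clone minimum of 10 FPKM 96 were left.

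Loci named by the authors were 64.0% of the class. The choice did not use locus type, but it used levels that differ by locus type, as given below for fibroblasts and IVF. The share is therefore not independent of the choice. Whether the own loci were defined from these same libraries is not stated. Over all loci of the table their share was 21.4%, and over the 6297 loci at 5 FPKM or more in both clone groups it was 9.16%. Read per locus type, 128 of 577 own loci that were high in both clone groups belonged to the class (22.2%), against 72 of 5720 Ensembl IDs (1.26%). No test of this difference is given, since loci are not replicates.

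The share of own loci was lower in classes at 1 FPKM or more in IVF or fibroblasts. Among loci at 5 FPKM or more in both clone groups and under 1 in fibroblasts, it was 64.0% with IVF under 1, 44.9% of 205 loci with IVF at 1 to 5, and 26.1% of 587 loci with IVF at 5 or more. With IVF held under 1, it dropped to 10.8% of 37 loci with fibroblasts at 1 to 5 and to 2.68% of 112 loci with fibroblasts at 5 or more. Within the class the order by IVF level was different, with 6 own loci of 15 at an IVF mean of 0, 15 of 26 above 0 and under 0.1 FPKM, 58 of 84 at 0.1 to 0.5 and 49 of 75 at 0.5 to 1. Own loci were low in fibroblasts in general, with 84.0% of all 4802 under 1 FPKM there, against 38.5% of Ensembl IDs. In IVF the types were closer over all loci, at 49.8% and 42.4% under 1 FPKM. They were far apart among loci at 5 FPKM or more in both clone groups. There 23.4% of own loci and 3.74% of Ensembl IDs were under 1 in IVF. In fibroblasts the shares were 64.6% and 10.8%.

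A high share of own loci was not found in clones alone. The mirror class, high in IVF (5 FPKM or more) while both clone groups and fibroblasts lay under 1, held 119 loci, of which 70 (58.8%) were the authors' own. Loci present in either kind of embryo and low in the other groups were thus mostly the authors' own. Among the 992 loci at 5 FPKM or more in both clone groups and under 1 in fibroblasts, own loci and Ensembl IDs had a like middle level in SCNT, with medians of 14.17 and 14.03 FPKM. In IVF their medians were 2.64 and 21.2 FPKM. Of these loci 34.3% of own loci and 11.6% of Ensembl IDs were under 1 in IVF and so belonged to the class.

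**Figure D3:**
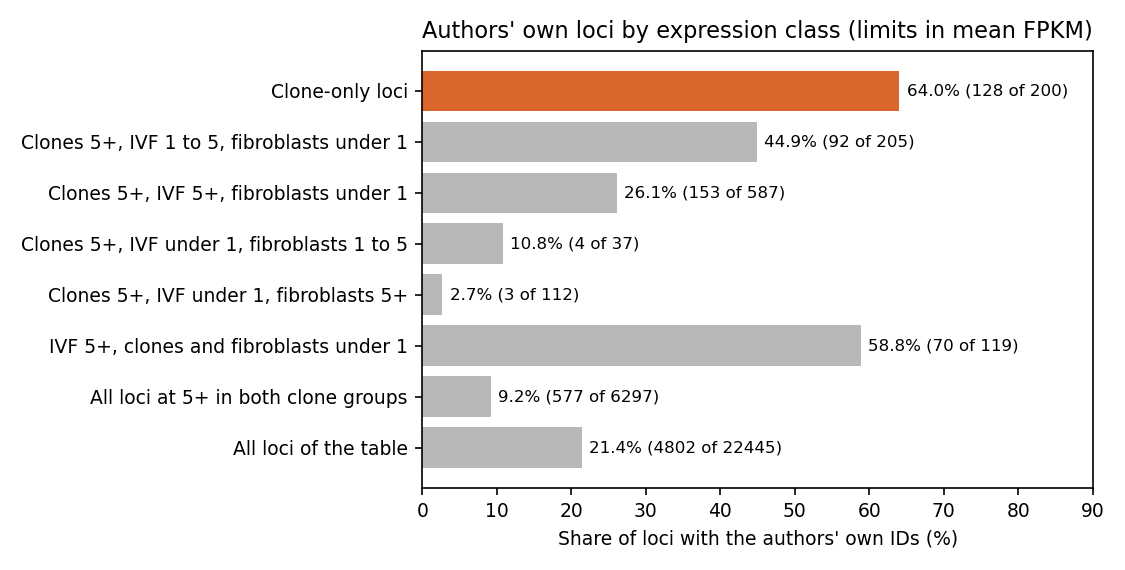
Share of loci with the authors' own IDs in 8 expression classes, with the count beside each bar and limits in mean FPKM. The clone-only loci (64.0%) and their mirror class in IVF (58.8%) stand above the 9.16% of all loci high in both clone groups, and classes also expressed in fibroblasts lie at 10.8% and 2.68%.

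Own loci of the class lay near each other in the authors' numbering. The IDs run from 1 to 4872 with 70 numbers not in the table, and what the numbering follows is not given in the sources used here. Summed over the 128 own members, 254 positions directly before or after a member held a locus, and 42 of these (16.5%) held another member, against 2.67% of all own loci. A locus between 2 members counts at both positions. Among the 70 of those positions with a locus high in both clone groups, 42 (60.0%) held members, against 22.2% of the 577 such loci. Neighbours also resembled each other in other classes: for loci high in both clone groups the share was 23.0% against 12.02% over all own loci, and in the mirror class of IVF it was 5.71% against 1.46%. A directly adjacent member existed for 39 of the 128 own loci (30.5%), and these may not be separate examples.

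When members no more than 3 numbers apart were joined, a distance chosen after the values were seen, 55 own loci fell into 23 groups and 73 stood alone. The group with the most members ran from number 507 to 513 and held 5 in 7 loci. Its members stood at 11.1 to 33.2 FPKM in SCNT, 6.85 to 45.0 with KDM5B, 0.02 to 0.47 in IVF and at most 0.07 in fibroblasts. The other loci of that stretch were in part similar: number 512 stood at 35.4 FPKM in SCNT and 44.2 with KDM5B but at 2.39 in IVF, and number 510 at 5.16 in SCNT and 2.05 with KDM5B. Numbers 278 to 285 held 4 members, at 7.64 to 14.5 FPKM in SCNT, and 4 other loci, of which 0 reached 5 FPKM in both clone groups. Numbers 4613 to 4617 held 4 members, at 6.22 to 27.9 FPKM in SCNT and 11.7 to 29.9 with KDM5B. Numbers 4622 to 4625 held another 3, among them the largest own member. The stretch above number 4500 held 22 members in 352 loci (6.25%), and also 71 loci high in both clone groups. Members were 31.0% of those 71 loci, against 30.6% in numbers 501 to 1000 and 22.2% overall.

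**Figure D4:**
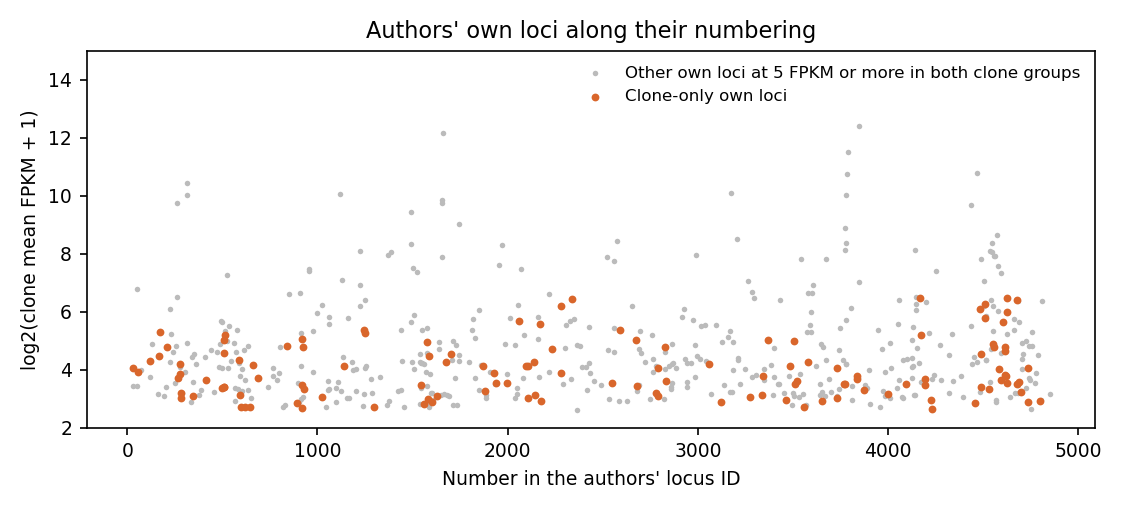
Authors' own loci at 5 FPKM or more in both clone groups, placed by the number in their ID, with the mean of the clone groups as log2(FPKM + 1) on the y axis. The 128 clone-only loci (orange) occur along the whole numbering, with 22 of them above number 4500, and none reaches the highest levels of the other own loci (grey).

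Members with consecutive numbers had no common direction between the clone groups. Of 21 such pairs, 10 changed in the same direction with KDM5B and 11 in opposite directions. Among the 72 Ensembl IDs, 11 (15.3%) carried the ID version 1, the first form of a gene model, against 9.50% of all Ensembl IDs and 6.59% of those high in both clone groups. Version 3 was also more frequent among members, with 16 loci (22.2%) against 14.7% and 16.4%. Versions 2, 4, 5 and 6 were less frequent among members than in either set. Version 5 was the most frequent in each set, at 34.7%, 41.2% and 41.5%. No member had the same values in all 4 columns as another locus, while 1385 other loci with a value above 0 did over the whole table. Among the 6297 loci at 5 FPKM or more in both clone groups, only 2 shared even both clone values. The lack of shared values is therefore not particular to the members.

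The class stood near its SCNT level in embryos with KDM5B overexpression. On the log2(FPKM + 1) scale the difference between SCNT with KDM5B and SCNT had a median of 0.14 and quartiles of -0.28 and 0.49, and 121 loci were higher and 79 lower with KDM5B. Over all 6297 loci at 5 FPKM or more in both clone groups the median was 0.12, and 59.1% were higher, against 60.5% of the class. In median difference and in the share of higher loci, the class was thus close to all such loci. Over the 14836 loci at 1 FPKM or more in an embryo group the median was 0.18. Columns were also centred, each shifted by its median log2 deviation from the locus means over all 4 groups. The same 200 loci then had a median of -0.06, with 87 higher and 113 lower. Over the 14836 loci the median turned as well, to -0.02. The direction of the class thus turned with the scaling, as did that of embryo loci in general.

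Means of the clone groups were at least 2-fold apart for 18 members (9.0%), against a background of 7.24% over loci at 5 FPKM or more in both and 8.27% over those at 1 FPKM or more in an embryo group. With KDM5B 12 members were higher (6.0%) and 6 were lower (3.0%), against 5.53% and 1.72% over the first set and 6.46% and 1.81% over the second. Over all levels together the members' counts lay near the background, but not at each level. At a clone mean of 5 to 10 FPKM, 1.35% of members were 2-fold apart, against 2.32% of other loci. The shares were 16.2% against 8.60% at 10 to 20 FPKM and 9.76% against 8.94% at 20 to 50. At 50 or more, with only 17 members, they were 11.8% against 7.56%. With columns centred, which redraws the class to 208 loci, 8 were higher and 10 lower. The background shares above are for uncentred columns and cannot be set against these counts. No background share was computed with columns centred. Requiring 5 FPKM in both clone groups removes loci that fell or rose strongly, so these counts understate how many differ.

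The members farthest apart between the clone groups included the largest. BGI_novel_G004481 had means of 120 FPKM in SCNT and 14.7 under KDM5B, a log2 difference of -2.95, with 0.843 in IVF and 0.107 in fibroblasts. ENSBTAG00000044183.2, the largest member, followed with a log2 difference of -1.90. The next in each locus type differed by -1.36 among Ensembl IDs, from 29.4 to 10.9 FPKM, and by -1.12 among own loci, from 26.2 to 11.5 FPKM. In all these loci the level with KDM5B was above that in IVF, as the choice of loci fixes.

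In the other direction, BGI_novel_G002789 stood at 6.52 FPKM in SCNT and 24.8 with KDM5B, a log2 difference of 1.78, with 0.5 in IVF and 0.01 in fibroblasts. ENSBTAG00000012370.5 stood at 17.0 FPKM in SCNT and 59.8 with KDM5B, a log2 difference of 1.75, with 0.76 in IVF and 0.313 in fibroblasts. The next in each type differed by 1.57 among own loci, from 6.74 to 22.0 FPKM, and by 1.55 among Ensembl IDs, from 8.56 to 27.1 FPKM.

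By level, the 17 members at a clone mean of 50 FPKM or more had a median difference of -0.23, with 7 higher and 10 lower with KDM5B. The 2010 other loci at that level had a median of 0.02. The median was 0.18 for the 41 members at 20 to 50 FPKM, against 0.15 for other loci, and 0.29 for the 68 members at 10 to 20 FPKM, against 0.20. For the 74 members at 5 to 10 FPKM it was 0.04, against 0.14 for other loci. The order of members and other loci thus differed between levels. No replicate check exists for these medians, and members were chosen on both columns.

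The spread of members between the clone groups was like that of other loci low in fibroblasts. The median absolute log2 difference was 0.43 for the class and 0.35 for all loci at 5 FPKM or more in both clone groups. It was 0.42 for the 992 of those loci under 1 FPKM in fibroblasts, and 0.44 for the 587 that also reached 5 in IVF. It was 0.33 for the 112 loci high in clones and in fibroblasts but under 1 in IVF. For the 74 members at a clone mean of 5 to 10 FPKM it was 0.24, against 0.28 for other loci at that level. Members were more spread than other loci at each higher level. The values were 0.50 against 0.38 at 10 to 20 FPKM, 0.50 against 0.37 at 20 to 50, and 0.49 against 0.36 at 50 or more. Clone means lay within 1.5-fold of each other for 138 members (69.0%), against 73.2% of all loci high in both clone groups and 76.8% of the 112. Across the 200 members Pearson's r of log2(FPKM + 1) between the clone groups was 0.83 and Spearman's rho 0.77. Over the 6297 loci they were 0.96 and 0.93, across a much wider range of levels, and loci are not independent replicates. Own loci and Ensembl IDs of the class had median absolute differences of 0.44 and 0.37.

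**Figure D5:**
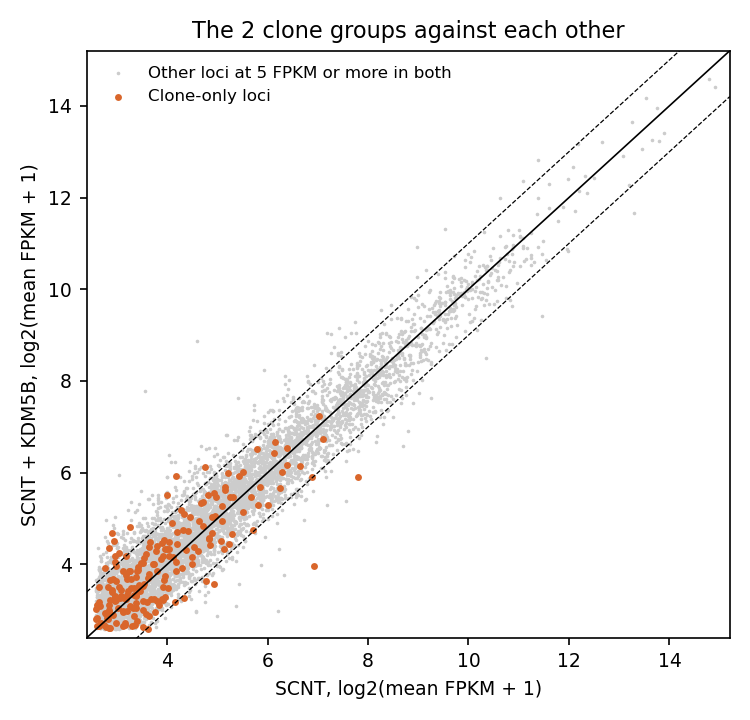
Mean level with KDM5B against mean level in SCNT, both as log2(FPKM + 1), for all loci at 5 FPKM or more in both clone groups. The solid line marks equal levels and dashed lines 2-fold differences. The 200 clone-only loci (orange) follow the grey cloud at its lower end, with 12 on or above the upper and 6 on or below the lower dashed line.

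Loci that met the limit in 1 clone group only were fewer than the class and mostly close to it. With IVF and fibroblasts under 1 FPKM, 46 loci reached 5 in SCNT but not with KDM5B, where their median was 3.27 FPKM and 8 were under 1. In reverse, 69 loci reached 5 with KDM5B but not in SCNT, where their median was 3.30 FPKM and 8 were under 1. The authors' own loci made up 69.6% and 53.6% of these sets. Their extremes were named after their values were seen. BGI_novel_G004212 had an SCNT mean of 110 FPKM and was listed at 0 under KDM5B, with 0 in IVF and 0.0533 in fibroblasts. ENSBTAG00000031731.2 was listed at 103 FPKM with KDM5B and 0.28 in SCNT, with 0 in IVF and in fibroblasts. How the 3 libraries of a group share such a mean cannot be read from the table.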

How the data were processed

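RNA sequencing covered 12 libraries in 4 groups, assigned by sample title. The labelled sample group of the fibroblasts names cloned embryos. The authors deposited FPKM values in 1 table with 1 column per group. The values themselves show means over 3 libraries: all members' values are whole multiples of 0.01 divided by 3 (tolerance 0.001 on the value times 300). Tools in the submitters' processing notes, given without roles, are RSEM 1.2.12, Bowtie2 2.2.5, StringTie 1.0.4, HISAT 0.1.6 and bcl2fastq 2.16, with the build UMD3.1. The annotation and any filters were not given in the sources used here. Depth is unknown, because FPKM means keep no read totals. Amplified cDNA from few cells can shift low values.

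Members and lists were chosen with earlier results of these data known. Differences are of log2(FPKM + 1) between group means, counted at 2-fold, and no test could be fitted. Such differences understate those of low loci. Named are, per locus type, the 2 members with the highest clone mean and those with the largest differences between the clone groups each way. The second-ranked differences are given by value. Gene lists and markers planned by symbol were not analysed, because the ARS-UCD2.0 gene table of 37063 entries has 0 Ensembl entries. The selection code, run on made data, recovered all 200 planted loci among 22445. The planted loci lay inside the limits and no other locus could meet them. This checks the code only, not the reliability of the class. Alternatives were other limits, scalings, pseudocounts and locus types. Calculations used Python 3.11.15, numpy 2.4.6, pandas 2.3.3, scipy 1.17.1 and matplotlib 3.10.9.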

Additional observations from a re-analysis of the deposited data

How the results depend on the processing

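Of 74 values under the alternatives, 37 were labelled as close to those reported, 33 as moved and 4 as turned in sign. The label was looser for counts than for medians. Counts of 269 against 200 loci and 26 against 18 were labelled close, while an SCNT median of 9.91 against 11.2 FPKM was labelled moved. The number of loci, 200, was 469 with clones at 2 FPKM or more and 96 at 10, 314 with the silent groups under 2 FPKM, 35 under 0.1 and 8 at 0. By locus type it was 72 and 128. It was 246 with SCNT alone in the rule and 269 with KDM5B alone. After rescaling it was 180 as TPM (162 shared with the 200), 208 with columns centred (188 shared) and 265 after quantile normalization (199 shared). The share of own loci was 56.7% with the silent groups under 2 FPKM, 54.3% under 0.1 and 50% at 0. The SCNT median was 5.02 FPKM with clones at 2 or more, 23.6 at 10, 9.89 with SCNT alone in the rule, 8.56 with KDM5B alone and 9.91 for Ensembl IDs. The median difference between the clone groups was -0.42 for the 8 loci at 0, -0.0262 with SCNT alone in the rule, -0.0381 after quantile normalization, -0.0576 with columns centred and 0.34 with KDM5B alone. The rules with 1 clone group lean towards that group by construction; for the others the cause was not tested. Loci 2-fold apart, 18 as reported, were 43 with clones at 2 or more, 7 at 10, 5 with silent groups under 0.1, 3 at 0, 38 with SCNT alone, 46 with KDM5B alone, 10 for Ensembl IDs, 8 for own loci and 10 at pseudocount 5. With columns centred they were 18, split 8 higher and 10 lower, with no background share computed at that scaling. Loci at 0 in both silent groups, 8 as reported, were 33 with clones at 2 or more, 4 at 10, 17 with SCNT alone, 19 with KDM5B alone, 4 of each type, and 0 after quantile normalization and with columns centred, which lift values of 0 by construction.

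No paired analysis was possible because each group has a single mean in the table. Fits without each replicate were not run either, and the unknown depth limits every value near 0.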
